A study of Mus musculus with 6 samples.

Results

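The iron handling genes described here are *Hamp*, *Tfrc*, *Tfr2*, *Trf*, *Slc40a1*, *Slc11a2*, *Fth1*, *Ftl1*, *Cp* and *Hfe*, a set of 10 genes measured in the liver of newborn mice with and without an activated human *SRY* transgene. They were chosen by gene symbol. The symbols in the array table gave 12 probes of 9 genes, and the older name Trfr2 gave the remaining 2 probes, those of *Tfr2*, so that the set held 14 of the 25697 probes and 10 of the 17914 gene names on the array. Of these, 13 probes of 9 genes passed a filter on low signal, which asked for a detection p under 0.01 on 3 or more of the 6 arrays, as did 10734 of all probes. The probe left out was that of *Ftl1*. No member passed that filter through the arrays of 1 group alone.

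The study asked what the human sex-determining gene does when it is switched on outside the gonad. All pups were males of the FVB strain (FVB/N in the methods of the study) at postnatal day 6, and each group held 3 of them, 1 liver RNA sample per array. The transgene, Signalox-hSRY, lies as a single copy in the H11 locus and is driven by the ubiquitous CAG promoter, with DsRed2 made in its place until Cre removes the stop. In hSRY-ON pups it had been recombined in the fertilised egg by Cre from Ddx4-Cre mothers, ahead of the formation of any tissue, and the profiled hSRY-ON pups did not themselves carry Ddx4-Cre. In hSRY-OFF pups, per the methods of the study, the same transgene had not been recombined, but the study also describes control littermates that were non-transgenic or carried Ddx4-Cre alone, so the genotype of these control samples is uncertain here. The level of the human transgene was not analysed here.

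Hepcidin, the peptide made from *Hamp*, is the hormone with which the liver sets how much iron enters the blood. It binds ferroportin, the iron exporter encoded by *Slc40a1*, and causes its removal from the surface of gut cells and macrophages. Hepatocytes read circulating iron through transferrin (*Trf*), transferrin receptor 2 (*Tfr2*) and HFE (*Hfe*), and adjust *Hamp* through BMP and SMAD signalling, while interleukin 6 raises *Hamp* through STAT3. Transferrin receptor 1 (*Tfrc*) takes up transferrin-bound iron, *Slc11a2* carries iron out of the endosome, ferritin (*Fth1*, *Ftl1*) stores it, and ceruloplasmin (*Cp*) oxidises it on release.

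Mice carry a second hepcidin gene, *Hamp2*, which lies near *Hamp* with 1 annotated gene, *Usf2-ps1*, between them. *Hamp2* is not one of the 10 genes and was chosen after its values were seen. Because the *Hamp* and *Hamp2* probes gave different values in these livers, the 250 bases before each start site are shown, 5′ to 3′, from the RefSeq annotation of build GRCm38.p6, where both genes lie on the minus strand. The *Hamp* window is chr7:30944030-30944279 and the *Hamp2* window is chr7:30924182-30924431. Capitals mark the sequence GGCGCC, known as a BMP-responsive element of hepcidin promoters, and the next downstream match to the STAT consensus TTCNNNGAA in *Hamp*, and the bases aligned with them in *Hamp2*.
Hamp: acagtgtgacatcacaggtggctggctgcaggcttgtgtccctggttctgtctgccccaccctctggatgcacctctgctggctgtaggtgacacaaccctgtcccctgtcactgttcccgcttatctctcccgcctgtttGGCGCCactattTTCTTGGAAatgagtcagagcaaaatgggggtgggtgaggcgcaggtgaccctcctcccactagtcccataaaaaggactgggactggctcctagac
Hamp2: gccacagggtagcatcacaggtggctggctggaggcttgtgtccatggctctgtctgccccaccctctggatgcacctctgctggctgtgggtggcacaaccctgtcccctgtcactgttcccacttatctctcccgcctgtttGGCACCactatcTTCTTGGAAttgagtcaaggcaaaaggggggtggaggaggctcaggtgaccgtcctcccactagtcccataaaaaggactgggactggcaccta

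In a global alignment the windows were identical at 227 of 253 aligned columns (89.7%), with 20 mismatches and 6 gap columns. The GGCGCC of *Hamp* lay 109 to 104 bases before the start site, and the aligned bases of *Hamp2* differed from it by the substitution G4A, counted from 1 at the 5′ end of the motif. The STAT match of *Hamp* lay 97 to 89 bases before the start site and had no substitution in *Hamp2*. Searched on both strands in the same 250-base window of all 32851 annotated promoters, GGCGCC was found in 9.59% and TTCNNNGAA in 7.02%. Promoter windows were matched for 7 of the 10 genes, of which *Hamp* and *Tfrc* held GGCGCC and *Hamp* alone held TTCNNNGAA. These matches describe letters in a window and were not tested as sites. The windows are those of the reference build, and the sequence of the FVB strain of these pups was not examined.

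*Hamp* gave the greatest fitted difference of the 13 tested member probes, and it was higher in hSRY-ON liver. Its bead intensity as deposited was 206, 261 and 149 in hSRY-OFF replicates 1 to 3 and 254, 611 and 429 in hSRY-ON replicates 1 to 3. The groups overlapped, since hSRY-ON replicate 1 was below hSRY-OFF replicate 2. After background correction and quantile normalization, log2 values were 6.16, 6.88 and 5.16 in hSRY-OFF and 6.78, 8.97 and 8.47 in hSRY-ON, a mean of 6.07 ± 0.86 against 8.07 ± 1.15 (SD, n = 3 each). The difference of 2.0 ± 0.62 (SE), or 4.01-fold, passed the threshold with limma's moderated test (adjusted p = 0.0432, Benjamini-Hochberg over all 10734 probes). hSRY-OFF replicate 3 did not detect the probe, and with that array placed at its detection floor the difference was 1.83. The call was lost without hSRY-OFF replicate 1 (adjusted p = 0.108), replicate 2 (0.0511) or replicate 3 (0.125) and without hSRY-ON replicate 2 (0.103) or replicate 3 (0.0886), while all of these differences stayed above 0 (1.56 to 2.40). It was also lost when no filter on low signal was applied (adjusted p = 0.0986). The size of the difference depended on the background correction and was 1.07 without any, 1.42 with normexp without detection p-values and 1.58 with offset 50, each past the threshold.

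The *Hamp2* probe moved the other way. Its deposited intensity was 182, 241 and 168 in hSRY-OFF and 160, 144 and 147 in hSRY-ON, so that every hSRY-ON array lay below every hSRY-OFF array. It was detected on 2 hSRY-OFF arrays and on 0 hSRY-ON arrays and therefore did not enter the main test. As a bound, the fall of *Hamp2* in hSRY-ON liver was at least 1.25-fold. With detection p under 0.05 as the filter, the probe entered through the hSRY-OFF arrays alone, where it was brighter. Its fitted difference was then -1.08, and the p-value of that fit is not used as support. The probe sequences were not used here, so how far each probe separates the paralogs was not tested.

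**Figure D1:**
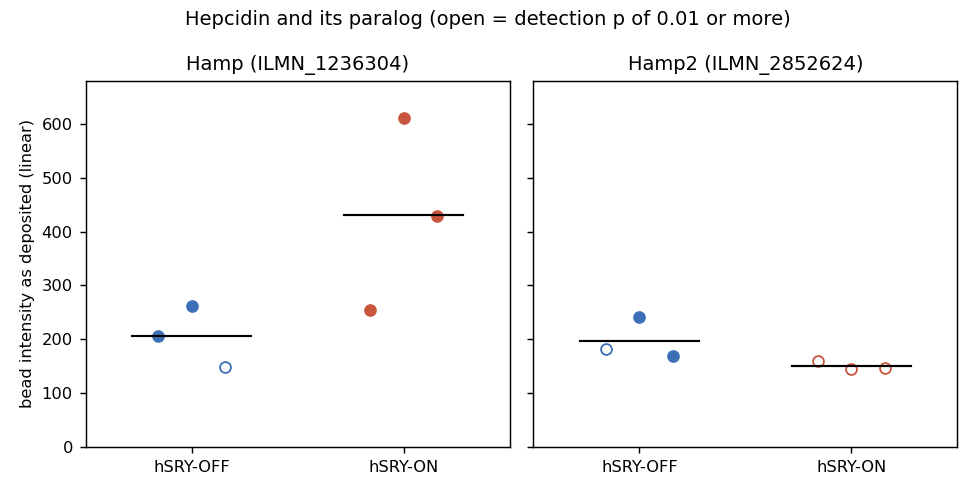
Bead intensity of the *Hamp* and *Hamp2* probes as deposited (linear axis from 0) on the 3 hSRY-OFF and 3 hSRY-ON arrays, with a line at each group mean and open circles where the detection p was 0.01 or more. *Hamp* reached 611 in hSRY-ON replicate 2, with overlapping groups, and no hSRY-ON array detected *Hamp2*.

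Of the 13 tested probes, 6 passed the threshold (46.2%), beside 33.1% of all tested probes. The 2 higher probes were of *Hamp* and *Fth1*, and the 4 lower probes were the pairs of *Tfr2* and *Hfe*, where 15.8% of all tested probes were higher and 17.3% lower. Groups did not overlap for 7 of the 13 probes (53.8%), beside 50% found over all tested probes. The median difference was -0.06 over the 13 probes and 0.02 over all tested probes. At an unadjusted p under 0.05 there were 8 member probes. The share of all tested probes at that threshold is not given here, so this count is not read as a result.

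**Figure D2:**
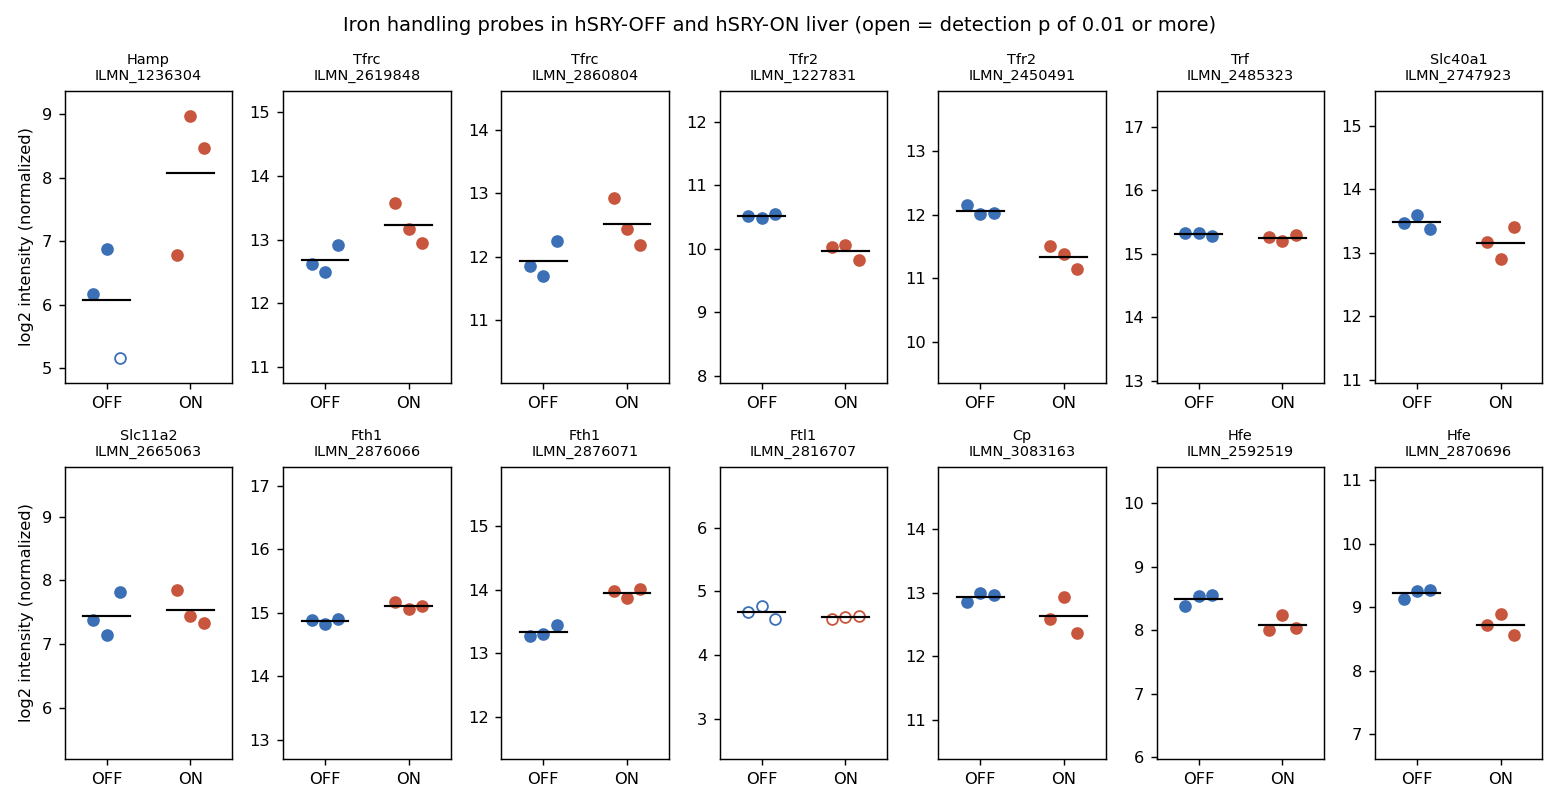
Normalized log2 intensity of all 14 member probes on each array, in panels that all span the same range of log2 units, with a line at each group mean and open circles where the detection p was 0.01 or more. Both *Tfr2* probes and both *Hfe* probes were lower on every hSRY-ON array than on any hSRY-OFF array. The *Ftl1* probe was detected on 0 arrays.

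*Tfr2* and *Hfe*, the iron sensors of the hepatocyte surface, were both lower in hSRY-ON liver on all of their probes. The brighter *Tfr2* probe had log2 values of 12.15, 12.01 and 12.02 in hSRY-OFF and 11.50, 11.38 and 11.15 in hSRY-ON. Its difference was -0.72 ± 0.13 (SE), 1.64-fold lower (adjusted p = 0.00697), and it passed under every one of the 14 alternatives. The dimmer *Tfr2* probe, with values of 10.52, 10.49 and 10.54 against 10.02, 10.06 and 9.83, fell by 0.54 ± 0.12 on the log2 scale (adjusted p = 0.0125). Without hSRY-OFF replicate 1 its adjusted p was 0.0558. The groups did not overlap on either probe.

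HFE is the protein whose loss causes hereditary hemochromatosis. The brighter *Hfe* probe had log2 values of 9.13, 9.25 and 9.27 in hSRY-OFF and 8.72, 8.89 and 8.56 in hSRY-ON. It fell by 0.49 ± 0.13 (SE), 1.41-fold (adjusted p = 0.0246). The dimmer probe, with 8.38, 8.54 and 8.55 against 8.0, 8.24 and 8.03, fell by 0.40 ± 0.12 (adjusted p = 0.0447). Again no hSRY-ON array reached an hSRY-OFF array on either probe. The *Hfe* calls depended on the number of arrays: leaving out any hSRY-OFF array or hSRY-ON replicate 1 took both probes over the threshold (adjusted p from 0.0616 to 0.133), and the dimmer probe was also lost without hSRY-ON replicate 3 (0.0702).

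Ferritin heavy chain, the ferroxidase subunit of the iron store, was higher. The dimmer of 2 *Fth1* probes had log2 values of 13.27, 13.30 and 13.44 in hSRY-OFF and 13.98, 13.87 and 14.01 in hSRY-ON. This was a rise of 0.61 ± 0.12 (SE), 1.53-fold (adjusted p = 0.00743), which passed under all 14 alternatives. The brighter probe had 14.89, 14.83 and 14.91 against 15.18, 15.06 and 15.11, a difference of 0.24 ± 0.11 that did not pass (adjusted p = 0.135), although its groups did not overlap either. It ranked between 12th and 36th from the brightest of all probes on its array, near the top of the scale. Without background correction or with an intensity trend in the variance it passed (adjusted p = 0.0456 and 0.0256). The ferritin light chain probe (*Ftl1*) had intensities of 129 to 151, was detected on 0 arrays and was not tested. Whether that probe reports the *Ftl1* transcript was not examined, so its reading is not taken as absence of the transcript.

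**Figure D3:**
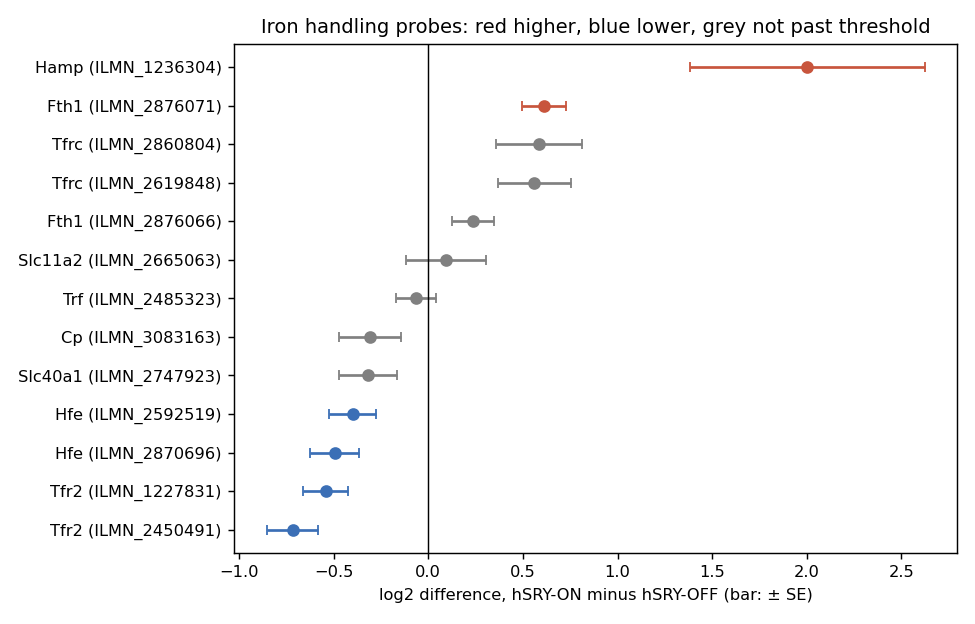
Fitted log2 difference, hSRY-ON minus hSRY-OFF, of the 13 tested member probes with bars of ± 1 SE, red where higher, blue where lower and grey where not past the threshold. *Hamp* lies farthest to the right with the widest bar, at 2.0 ± 0.62, and the brighter *Tfr2* probe farthest to the left at -0.72 ± 0.13.

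*Tfrc*, the receptor that takes iron into dividing and hemoglobin-making cells, did not pass the threshold. Its brighter probe had log2 values of 12.61, 12.50 and 12.91 in hSRY-OFF and 13.58, 13.17 and 12.95 in hSRY-ON, a difference of 0.56 ± 0.19 (SE; adjusted p = 0.0622). Its dimmer probe had 11.85, 11.69 and 12.25 against 12.93, 12.44 and 12.18, a difference of 0.59 ± 0.23 (adjusted p = 0.0858). In both, hSRY-ON replicate 3 lay nearest to hSRY-OFF replicate 3. Without hSRY-ON replicate 3 both probes passed (0.70, adjusted p = 0.0268, and 0.76, adjusted p = 0.0365), and the brighter probe also passed under 4 other settings. Across the 6 arrays the probes had a Pearson r of 0.996, as a description.

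The newborn liver still makes red cells, and *Tfrc* is abundant in their precursors, so the erythroid markers are given beside it. Of 11 tested erythroid probes, 4 were higher (*Alas2*, *Ermap*, *Gata1* and *Tspo2*), 0 were lower and the median difference was 0.71. That was 36.4% called, beside 33.1% of all tested probes. The count of higher probes was 1 without hSRY-OFF replicate 1 or replicate 2 and 2 without hSRY-ON replicate 1. It was 8 without hSRY-OFF replicate 3 and 7 with the replicate number as a block. Of the higher probes, that of *Tspo2* held under all alternatives, while those of *Alas2*, *Ermap* and *Gata1* were lost under 2, 4 and 6. The median log2 intensity of these probes, on every array that of *Ermap*, was 8.40, 8.04 and 8.92 in hSRY-OFF and 9.43, 9.34 and 9.17 in hSRY-ON, while the mean of both *Tfrc* probes was 12.23, 12.09 and 12.58 against 13.25, 12.80 and 12.57. hSRY-OFF replicate 3 was the highest array of its group and hSRY-ON replicate 3 the lowest of its group on both measures. The summed level of the erythroid probes other than *Hba-a1*, which was the brightest probe at 15.50 on every array, ran from 17990 to 37006 in hSRY-OFF and from 35193 to 47518 in hSRY-ON. The same *Hba-a1* value on every array meant that this tested probe could not be called. *Hbb-b1*, a beta globin, differed by 0.47 (adjusted p = 0.27) on a probe with log2 values of 7.06 to 8.26, far below *Hba-a1*. How well that probe reports beta globin RNA was not tested. The part of these cells in the *Tfrc* and *Fth1* differences was not tested. In whole liver a change in the number of cells of a type and a change in RNA per cell cannot be told apart.

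**Figure D4:**
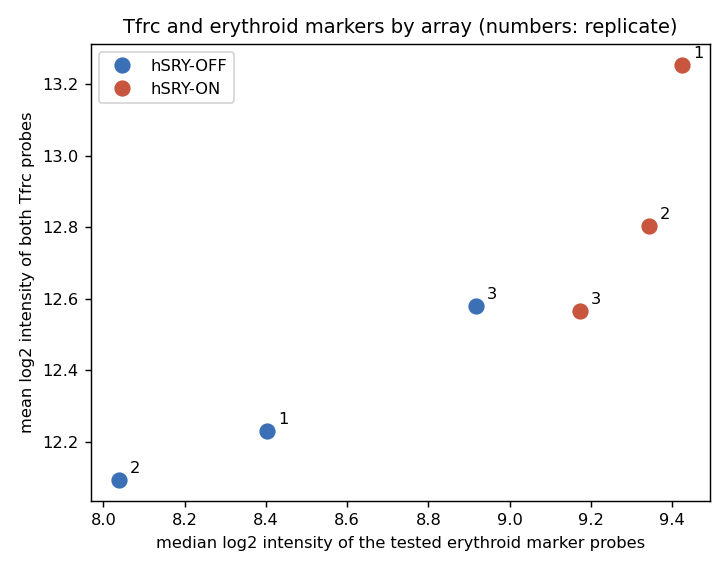
Mean log2 intensity of both *Tfrc* probes (vertical axis) against the median log2 intensity of 11 erythroid marker probes (horizontal axis) on the 6 arrays, numbered by replicate. hSRY-ON arrays lie at 9.17 to 9.43 and hSRY-OFF arrays at 8.04 to 8.92 on the horizontal axis, and hSRY-ON replicate 3 lies at the *Tfrc* level of hSRY-OFF replicate 3.

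The transporters and plasma proteins gave no call. *Slc40a1*, ferroportin, had log2 values of 13.46, 13.59 and 13.38 in hSRY-OFF and 13.17, 12.91 and 13.40 in hSRY-ON, a difference of -0.32 ± 0.16 (adjusted p = 0.154). Its groups overlapped through hSRY-ON replicate 3, without which the difference was -0.44 (adjusted p = 0.0471). Ceruloplasmin had 12.85, 13.00 and 12.96 against 12.59, 12.93 and 12.37, a difference of -0.31 ± 0.16 (adjusted p = 0.187), or -0.46 without hSRY-ON replicate 2 (adjusted p = 0.0479). *Slc11a2*, the endosomal iron transporter DMT1, had 7.38, 7.14 and 7.81 against 7.84, 7.44 and 7.33, a difference of 0.09 ± 0.21 (adjusted p = 0.764) whose sign turned when hSRY-OFF replicate 2 or hSRY-ON replicate 1 was left out. *Trf* was at 15.33, 15.33 and 15.28 against 15.26, 15.20 and 15.29 (difference -0.06 ± 0.11, adjusted p = 0.678), and ranked 5th to 11th from the brightest probe on its array, where the scale leaves little room for a difference. Macrophages export iron through ferroportin. Of 12 tested macrophage probes 4 were lower and 1 was higher (41.7% called, beside 33.1% of all tested probes), with a median of -0.32. Their summed level was 13832 to 17217 in hSRY-OFF and 10975 to 13611 in hSRY-ON. With 1 array left out, 1 (without hSRY-OFF replicate 2) to 6 (without hSRY-ON replicate 3) were lower and 0 were higher, the higher probe, of *Csf1r*, being lost under 11 alternatives. The Kupffer cell lectin *Clec4f* was 1.84-fold lower (adjusted p = 0.0132, and 0.0532 without hSRY-OFF replicate 2) on its brighter probe, and *Cd163* was detected on 0 arrays. The dimmer *Clec4f* probe, also counted among the 4 lower, was lost under 7 alternatives. It passed the filter through the hSRY-OFF arrays alone, so its call is not separate support. The part of macrophages in the *Slc40a1* values was not tested.

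Among the genes that carry the BMP signal to *Hamp*, 14 probes were tested, with 2 higher, 2 lower and a median of 0.00. The called share was 28.6%, beside 33.1% of all tested probes. The 2 lower probes were both of *Tmprss6*, the liver protease that cleaves hemojuvelin and holds *Hamp* down. Its brighter probe had log2 values of 10.91, 11.27 and 10.99 in hSRY-OFF and 9.66, 9.61 and 9.56 in hSRY-ON, 2.73-fold lower (-1.45 ± 0.13, adjusted p = 0.000451). Its dimmer probe had 9.51, 9.67 and 9.77 against 8.10, 8.09 and 7.97, 3.03-fold lower (-1.60 ± 0.12, adjusted p = 0.000239). The groups did not overlap, and both calls held under all alternatives. *Id1*, a transcription factor gene that BMP signalling induces together with *Hamp*, rose 1.74-fold, from 9.11, 9.16 and 8.70 to 9.48, 9.93 and 9.95 (0.80 ± 0.19, adjusted p = 0.0162). Without hSRY-OFF replicate 3 the adjusted p was 0.0502.

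The other members of that list gave less. *Smad5*, a transducer of the signal, was at least 1.43-fold higher on a probe that 0 hSRY-OFF arrays detected (adjusted p = 0.0263, lost under 6 alternatives). That probe passed the filter through the hSRY-ON arrays alone, so its p-value is not separate support. The other *Smad5* probe differed by -0.46 (adjusted p = 0.0554). Hemojuvelin (*Hjv*, listed as Hfe2), the BMP co-receptor, differed by -0.20 on its tested probe (adjusted p = 0.459). The ligands *Bmp6* and *Bmp2* and the targets *Smad7* and *Atoh8* were detected on 0 arrays.

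On the interleukin 6 side, 11 probes were tested, with 3 higher, 1 lower and a median of 0.23. That was 36.4% called, beside 33.1% of all tested probes. *Socs3*, the STAT3-induced inhibitor of cytokine signalling, had log2 values of 7.01, 6.46 and 7.01 in hSRY-OFF and 7.92, 8.28 and 8.33 in hSRY-ON, 2.55-fold higher (1.35 ± 0.19, adjusted p = 0.00253). *Orm1*, an acute phase plasma protein, had 8.26, 8.16 and 8.50 against 12.60, 10.97 and 11.10, 9.54-fold higher (3.25 ± 0.41, adjusted p = 0.00145). The acute phase gene *Saa3* fell instead, by 1.17 ± 0.17 (adjusted p = 0.00296), from 7.97, 8.06 and 7.67 to 7.0, 6.70 and 6.49. The groups did not overlap in any of these genes. *Jak2*, a kinase bound to cytokine receptors, rose by 0.51 on 1 of 2 tested probes (adjusted p = 0.0229, lost under 5 alternatives). *Stat3* differed by 0.06 to 0.30 on 3 probes, none past the threshold, *Saa1* was detected on 2 arrays and *Il6* on 0.

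**Figure D5:**
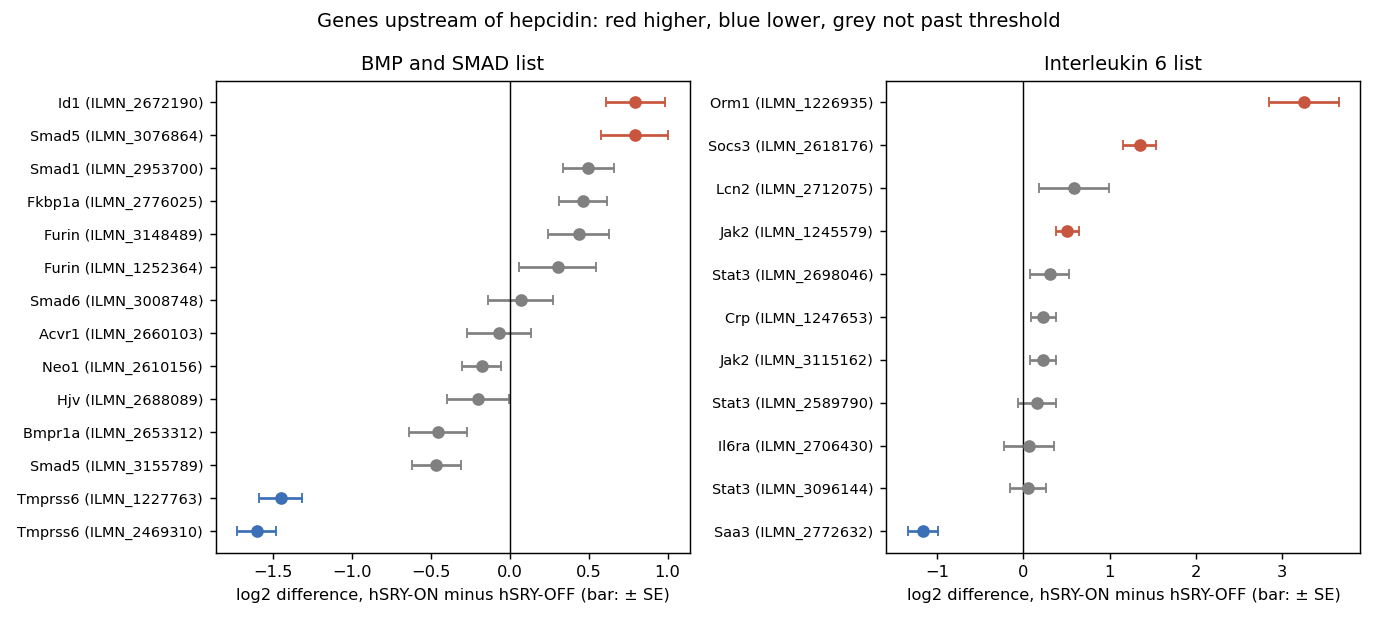
Fitted log2 difference, hSRY-ON minus hSRY-OFF, with bars of ± 1 SE for the tested probes of the BMP and SMAD list and of the interleukin 6 list, red where higher, blue where lower and grey where not past the threshold. Both *Tmprss6* probes stand at the low end of the first list (-1.45 and -1.60) and *Orm1* (3.25) and *Socs3* (1.35) at the high end of the second.

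Iron regulatory proteins bind iron responsive elements in mRNAs such as those of ferritin and *Tfrc*. Their list, with other mRNAs that hold such an element, had 6 tested probes, of which 2 were higher and 1 lower, with a median of 0.29. The called share was 50%, beside 33.1% of all tested probes. *Aco1*, which encodes iron regulatory protein 1, was at least 1.21-fold lower, detected on all hSRY-OFF arrays and on 0 hSRY-ON arrays (adjusted p = 0.0282, lost under 6 alternatives). It passed the filter through the hSRY-OFF arrays alone, so its p-value is not separate support for the fall. *Ireb2*, which encodes iron regulatory protein 2, differed by 0.45 ± 0.15 (adjusted p = 0.0574). *Alas2*, the erythroid enzyme that starts heme synthesis, was 1.90-fold higher (adjusted p = 0.0117, lost without hSRY-OFF replicate 1 or replicate 2). *Epas1* differed by -0.05 and 0.14 on 2 probes that did not pass, and *Fbxl5* was detected on 0 arrays.

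In the list of iron uptake, reduction, storage cargo and release, 12 probes were tested, with 3 higher, 1 lower and a median of 0.30. That was 33.3% called, beside 33.1% of all tested probes. *Ncoa4*, the cargo receptor that delivers ferritin to the lysosome, had log2 values of 9.61, 9.80 and 9.71 in hSRY-OFF and 10.76, 11.00 and 10.86 in hSRY-ON, 2.25-fold higher (1.17 ± 0.12, adjusted p = 0.000765). *Cybrd1*, a ferric reductase, was detected on 0 hSRY-OFF arrays (4.79, 4.62 and 4.64) and on all hSRY-ON arrays (8.86, 8.71 and 8.01), at least 6.89-fold higher on the background-corrected scale (adjusted p = 0.000107). It passed the filter through the hSRY-ON arrays alone, so that p-value is not separate support. As deposited, with the background still in, its mean intensity was 142 against 508, and without background correction its log2 difference was 1.82. The other *Cybrd1* probe was detected on 0 arrays. *Slc39a8*, a metal importer, was 2.54-fold lower, with 8.24, 8.57 and 8.19 against 6.82, 7.14 and 7.01 (adjusted p = 0.00102). These groups did not overlap. The other higher probe was of the reductase *Steap2* (0.42, adjusted p = 0.0321, lost under 7 alternatives). *Slc39a14*, a hepatocyte iron importer, differed by -0.06 (adjusted p = 0.716), and *Steap3* was detected on 0 arrays.

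Genes that clear hemoglobin and heme gave 12 tested probes, with 3 higher, 2 lower and a median of -0.01. That was 41.7% called, beside 33.1% of all tested probes. Heme oxygenases, which open the heme ring and free its iron, were both higher. *Hmox1* rose 2.05-fold, from 9.08, 9.29 and 9.29 to 10.44, 9.91 and 10.41 (adjusted p = 0.00452), and *Hmox2* rose 2.07-fold, from 9.02, 9.35 and 9.24 to 10.34, 10.40 and 10.01 (adjusted p = 0.00293). *Flvcr2* (listed as Mfsd7c), a membrane transporter, was 5.36-fold lower, with 9.85, 10.04 and 10.19 against 7.33, 7.35 and 8.13 (adjusted p = 0.000533). The heme transporter *Slc48a1* rose by 0.50 (adjusted p = 0.028, lost under 4 alternatives), and *Lrp1*, the receptor for hemopexin-bound heme, fell by 0.67 (adjusted p = 0.0441, lost under 12 alternatives). Haptoglobin (*Hp*, 3 probes) and hemopexin (*Hpx*, 2 probes), which bind free hemoglobin and heme in plasma, did not pass, with differences from -0.24 to 0.00. The *Hp* probes and the brighter *Hpx* probe had group means of 14.89 to 15.36, near the top of the scale, which leaves less room for a difference. The dimmer *Hpx* probe, at 14.28 against 14.04, gave the -0.24.

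For mitochondrial iron and iron-sulfur clusters, 16 probes were tested, with 4 higher, 1 lower and a median of 0.08. The called share was 31.2%, beside 33.1% of all tested probes. *Isca1*, a cluster assembly factor, rose 1.82-fold (adjusted p = 0.00861). Ferrochelatase (*Fech*), which places iron into heme, rose by 0.76 and 0.84 on 2 probes (adjusted p = 0.0475 and 0.0357), and mitoferrin 1 (*Slc25a37*), the iron importer of red cell precursors, by 0.81 (adjusted p = 0.0397). The calls of *Fech* and *Slc25a37* were each lost under at least 6 alternatives. *Fech*, *Slc25a37* and *Alas2* are used heavily in red cell precursors, and *Alas2* is itself among the erythroid markers given beside *Tfrc*. Of those 11 tested probes 4 were higher. The part of red cell precursors in the *Fech*, *Slc25a37* and *Alas2* differences was not tested.

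Detected probes numbered 10318 to 10762 per array and the median deposited intensity ran from 147 to 165. The hepatocyte markers were uneven: *Apoa1*, an apolipoprotein, lay between 14.85 and 15.13 and the brighter probe of *Ahsg*, a plasma glycoprotein, between 15.40 and 15.43 on the log2 scale, while the *Alb* probe lay between 6.55 and 8.16 and that of *Fgb* was detected on 1 array and not tested. Of 5 tested hepatocyte probes 2 were lower, those of *Ttr* (-0.46, adjusted p = 0.0174) and *Alb* (-1.11, adjusted p = 0.00852), and 0 were higher. That was 40% called, beside 33.1% of all tested probes. Without any 1 of the hSRY-OFF arrays *Ttr* was lost and 1 was lower. The *Alb* probe was dim, and those of *Apoa1* and the brighter *Ahsg* probe lay near the top of the scale. The count of hepatocyte probes is therefore a weak measure of hepatocyte RNA. The part of hepatocyte RNA in the lower *Tfr2*, *Hfe* and *Tmprss6* values was not tested. Of 11 tested probes of sinusoidal endothelial cells, 4 were higher, from 3 genes, and 1 was lower (45.5% called, beside 33.1% of all tested probes). Their median difference was 0.20. Their summed level went the other way, at 10544 to 12816 in hSRY-OFF and 9313 to 11701 in hSRY-ON. So did their median log2 intensity per array, at 8.77 to 9.04 in hSRY-OFF and 8.31 to 8.71 in hSRY-ON.

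The 5 tested probes of other genes whose values followed *Hamp* most closely over the 6 arrays were those of LOC100046264 (Pearson r = 0.993), *Tmem168* (0.990), *E130309D02Rik* (0.988), *Tmem65* (0.987) and *Sun1*, listed as Unc84a (0.984). These were the highest of 10734 correlations over 6 arrays that share 2 groups, so they are a description only.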

How the data were processed

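The authors measured liver RNA of 3 hSRY-ON and 3 hSRY-OFF pups on Illumina MouseRef-8 arrays, and the labels gave each sample its group and replicate number. In the deposited table each probe and array had a bead intensity on a linear scale, neither background-corrected nor normalized by the authors (lowest value 108), and a deposited detection p-value. Scanner settings and genome build were not given in the sources used here. The authors name TCC, a package for count data, which was not applied to intensities.

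Background was removed with normexp (limma 3.58.1, function nec, offset 16, using the detection p-values) in R 4.3.3. Arrays were then quantile-normalized and put on the log2 scale. The offset shrinks differences of dim probes. Probes with detection p under 0.01 on at least 3 of 6 arrays were fitted with lmFit and eBayes, without covariates, and two-sided p-values were adjusted by Benjamini-Hochberg with a threshold of 0.05. The procedure was tested on simulated data. Precision is limited by having 3 arrays in each group. Where 0 arrays of a group detected a probe, "at least" folds divide the brighter group's mean by that of, per array, the higher of the lowest detected signal and the probe's own.

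Of 18138 symbols, 14307 were current in RefSeq (GRCm38.p6), 2927 matched through an older name and 904 kept the table's name. Probes were tested separately, and probe levels were set side by side only to name the brighter of a gene's probes and to rank a probe on its array. Named were all member probes, 25 related genes whatever their values, the 3 smallest p-values past the threshold in each pathway list and the 5 probes most like *Hamp*; other names were chosen after their values were seen. Some results that this rule names are not reported here. The members and lists were chosen with earlier results of these data known. Promoter windows were aligned with Biopython 1.88. Alternatives were other background corrections, scalings, filters, a variance trend, a replicate block, a stricter threshold and each array left out. Arrays of other organs were not analysed here.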

Additional observations from a re-analysis of the deposited data

How the results depend on the processing

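Over all tested probes, 1700 were higher and 1854 lower. At an adjusted p under 0.01 these were 693 and 972, and leaving out 1 array at a time gave 856 to 1822 higher and 965 to 2125 lower, with the fewest without hSRY-OFF replicate 1. Of the 13 tested iron handling probes, 6 passed, 2 passed at 0.01, 2 to 7 passed with 1 array left out (2 without hSRY-OFF replicate 1, 3 without replicate 2 or replicate 3 of that group), and 4 were found with the names of the table alone, a setting chosen after seeing the data. The pathway lists had 17 higher and 8 lower probes. The called share of single lists ran from 28.6% to 50%, beside 33.1% of all tested probes. When 1 array was left out, the higher probes numbered 9 (without hSRY-OFF replicate 1 or hSRY-ON replicate 1) to 17. The lower probes numbered 5 (without hSRY-OFF replicate 1 or replicate 2 or hSRY-ON replicate 2) to 11. The higher probes then numbered 0 to 3 in the BMP and SMAD list (0 without hSRY-OFF replicate 3) and 1 to 4 in the mitochondrial list (1 without hSRY-OFF replicate 1 or replicate 2 or hSRY-ON replicate 1).

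Leaving out 1 array gave log2 differences of 1.56 to 2.64 for *Hamp*, -0.47 to -0.35 and -0.58 to -0.41 for the dimmer and brighter *Hfe* probes, -0.59 to -0.48 for the dimmer *Tfr2* probe, 0.39 to 0.70 and 0.38 to 0.76 for the brighter and dimmer *Tfrc* probes, -0.44 to -0.18 for *Slc40a1*, -0.46 to -0.18 for *Cp* and -0.06 to 0.28 for *Slc11a2* (-0.0572 without hSRY-OFF replicate 2 and -0.0563 without hSRY-ON replicate 1). *Hamp* no longer passed with no filter (2.0, adjusted p = 0.0986), nor did the dimmer *Hfe* probe with median scaling (-0.43, adjusted p = 0.0746), a detection p under 0.05 (-0.40, 0.053) or the replicate block (-0.40, 0.0683). The brighter *Tfrc* probe passed without background correction (0.55, adjusted p = 0.0441), with normexp without detection p-values (0.56, 0.0454), with offset 50 (0.56, 0.0487) and with an intensity trend (0.56, 0.0376), and the brighter *Fth1* probe without background correction (0.24, 0.0456) and with the trend (0.24, 0.0256). The cause was not tested. Without background correction the differences of dim probes were smaller: 1.07 for *Hamp*, 0.79 for *Socs3*, -0.65 for *Saa3*, -0.83 for *Slc39a8*, 1.82 for *Cybrd1*, 0.26 for *Smad5*, -0.16 for *Aco1*, -0.21 for *Lrp1* and -0.64 for *Alb*. Both calls of *Tmprss6*, that of the brighter *Tfr2* probe and that of the dimmer *Fth1* probe held under all alternatives run.

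Arrays of the same number in both groups had correlations of deviations of 0.0248, 0.0955 and 0.0523. Arrays of different numbers were not compared, so these values cannot decide whether the numbers pair the arrays. With the replicate block, 1565 probes were higher and 1645 lower, 5 iron handling probes passed, and the pathway lists had 14 and 6. Probes near background, such as *Hamp2*, *Aco1* and *Smad5*, are limited by signal over background. The called *Smad5*, *Aco1*, *Cybrd1* and dimmer *Clec4f* probes did not pass the filter in 3 of the fits with 1 array left out.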
